A study of Mus musculus with 2931 samples.

Results

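The 10 genes described here make, process or answer signals that widen or narrow blood vessels: Nos3, Edn1, Ece1, Ace, Ptgis, Ptgs1, Ptgs2, Pde3a, Pde5a and Adrb1. They were chosen by their symbols, and all 10 were found among the 18072 genes of the count table. RNA was measured in 2931 single endothelial cells, the inner lining of vessels, sorted from mouse distal lung. Each cell was sequenced as a full-length library cut with the Tn5 transposase. The cells came from 10 mice in 5 groups. The normal-air groups were the late embryo (E18.5) and postnatal days 1, 7 and 21 (P1, P7, P21), and the last group was P7 with hyperoxia, an excess of oxygen in the air that is breathed. A female and a male mouse made up every group. The sources used here do not say if a mouse name is a single animal or a pool, nor how high and how long the oxygen was raised. So n counts mouse names. P-values between groups measure the spread between the mice of a group. Those between cell types of the same mice measure the spread of differences between cell types, pooled over all types.

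Nos3 makes nitric oxide, which raises cyclic GMP in the smooth muscle around a vessel and relaxes it. Edn1 encodes the precursor of endothelin-1, a peptide that contracts smooth muscle, and Ece1 is the protease that cuts this precursor into its active form. Ace, on the surface of lung capillaries, converts angiotensin I to angiotensin II and breaks down bradykinin. Ptgs1 and Ptgs2 (cyclooxygenases) make prostaglandin H2, which Ptgis (prostacyclin synthase) turns into the vasodilator prostacyclin. Pde3a breaks down cyclic AMP and is inhibited by cyclic GMP, Pde5a breaks down cyclic GMP, and Adrb1 is the beta-1 adrenergic receptor, which raises cyclic AMP. Around birth the resistance of the lung vessels falls, and drugs against pulmonary hypertension act on the nitric oxide, endothelin and prostacyclin pathways.

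RefSeq start sites on GRCm38.p6 were matched for 7 of the 10 genes: Edn1, Ece1, Ace, Ptgs1, Ptgs2, Pde5a and Adrb1. The promoters of 3 of them are shown because results below turn on them: Edn1 was nearly silent in 1 capillary type, Ptgs2 was found almost only in venous cells, and Adrb1 was low before birth. Each run holds 250 bases before the start site and 30 after it, 5′ to 3′ on the plus strand, with capitals marking the motif letters found.
Edn1, chr13:42301226-42301505: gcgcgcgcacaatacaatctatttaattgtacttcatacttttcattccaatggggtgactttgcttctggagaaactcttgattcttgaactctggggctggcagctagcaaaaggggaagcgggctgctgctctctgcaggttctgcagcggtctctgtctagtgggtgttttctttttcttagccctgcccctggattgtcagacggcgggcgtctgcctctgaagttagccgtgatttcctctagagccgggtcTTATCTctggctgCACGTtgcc
Ptgs2, chr1:150099781-150100060: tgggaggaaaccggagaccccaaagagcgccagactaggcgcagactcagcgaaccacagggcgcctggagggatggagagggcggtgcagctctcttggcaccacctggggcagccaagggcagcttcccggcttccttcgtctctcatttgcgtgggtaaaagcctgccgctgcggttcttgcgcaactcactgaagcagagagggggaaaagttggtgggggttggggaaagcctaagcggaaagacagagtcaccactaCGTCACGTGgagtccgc
Adrb1, chr19:56721867-56722146: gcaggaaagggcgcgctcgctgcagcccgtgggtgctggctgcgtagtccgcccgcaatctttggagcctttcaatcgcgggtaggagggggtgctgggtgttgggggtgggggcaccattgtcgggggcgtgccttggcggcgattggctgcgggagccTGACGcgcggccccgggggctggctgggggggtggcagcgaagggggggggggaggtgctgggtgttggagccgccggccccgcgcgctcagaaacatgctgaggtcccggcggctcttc

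The motifs searched on both strands were the HIF core ACGTG, the CRE core TGACG, the AP-1 site TGANTCA, the GATA site AGATAA, the E box CACGTG and the TATA motif TATAAA. The E box contains the HIF core, so a match to the longer one counts for both. In the Edn1 window the GATA letters (as TTATCT) began 9 bases after the start site and the HIF core letters (as CACGT) 22 bases after it. In the Ptgs2 window a CRE core (as CGTCA) began at base 14 and an E box at base 17 after the start site, overlapping in the run CGTCACGTG. The Adrb1 window held a CRE core 90 bases before the start site. Of 32851 mouse promoters of 300 bases, 19.6% held the HIF core, 20.8% the CRE core, 7.81% the AP-1 site, 11.2% the GATA site, 7.15% the E box and 13.6% the TATA motif. These matches are letters in a window and say nothing of binding.

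The table held 2062278606 reads, with 42095 to 2967985 reads per cell and a median of 621406. Cells were taken in the authors' 10 subtype labels. A single marker is given here for Car4+, venous, arterial I and lymphatic cells. Median levels in CPM (reads of a gene per 1000000 reads of the sum) were 5287 of Car4 in Car4+ capillaries against 380 in Car4- capillaries, 266 of Slc6a2 in venous cells, 357 of Gja5 in arterial I cells and 603 of Prox1 in lymphatic cells. In sums of at least 8 cells the summed markers of other cells reached at most 225 CPM for smooth muscle and pericytes, 305.5 for fibroblasts, 266 for epithelium, 140 for platelets, 51.9 for leukocytes and 89.6 CPM for cardiomyocytes. The epithelial sum was mostly Sftpc (median 124 CPM in embryonic and 42.3 CPM in Car4- cells) and Ager (median 37.5 CPM in Car4- cells), while Epcam, Dcn and Cd3e had medians of 0.0342 CPM or less in every class. The part of these transcripts in the results was not tested. How the labels were drawn is not given in the sources used here. If the genes below took part in it, p-values between labels are too small.

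The reads of all cells of a class in a mouse were added up, sums of at least 8 cells were used, and levels are in CPM of that sum. Early and Late Car4- capillaries were joined as Car4- capillaries. Between classes of the same mice, 6 normal-air mice of P1, P7 and P21 were tested with edgeR with the mouse as a term, and a gene was called at a Benjamini-Hochberg adjusted p under 0.05. Fewer cells expressing a gene and less RNA per cell cannot be told apart in such a sum, so the share of cells with a read is given too, after each cell was thinned to 50000 reads, with exact 95% binomial intervals over cells. The 11 cells with fewer than 50000 reads were left out of these shares. For these intervals the cells of a class were pooled over all mice, ages and air groups. They cover counting error over cells only and leave out the spread between mice. PCR copies were not removed by molecular identifiers. Where no cell had a read, the limit given is the upper end of the exact interval.

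**Figure D1:**
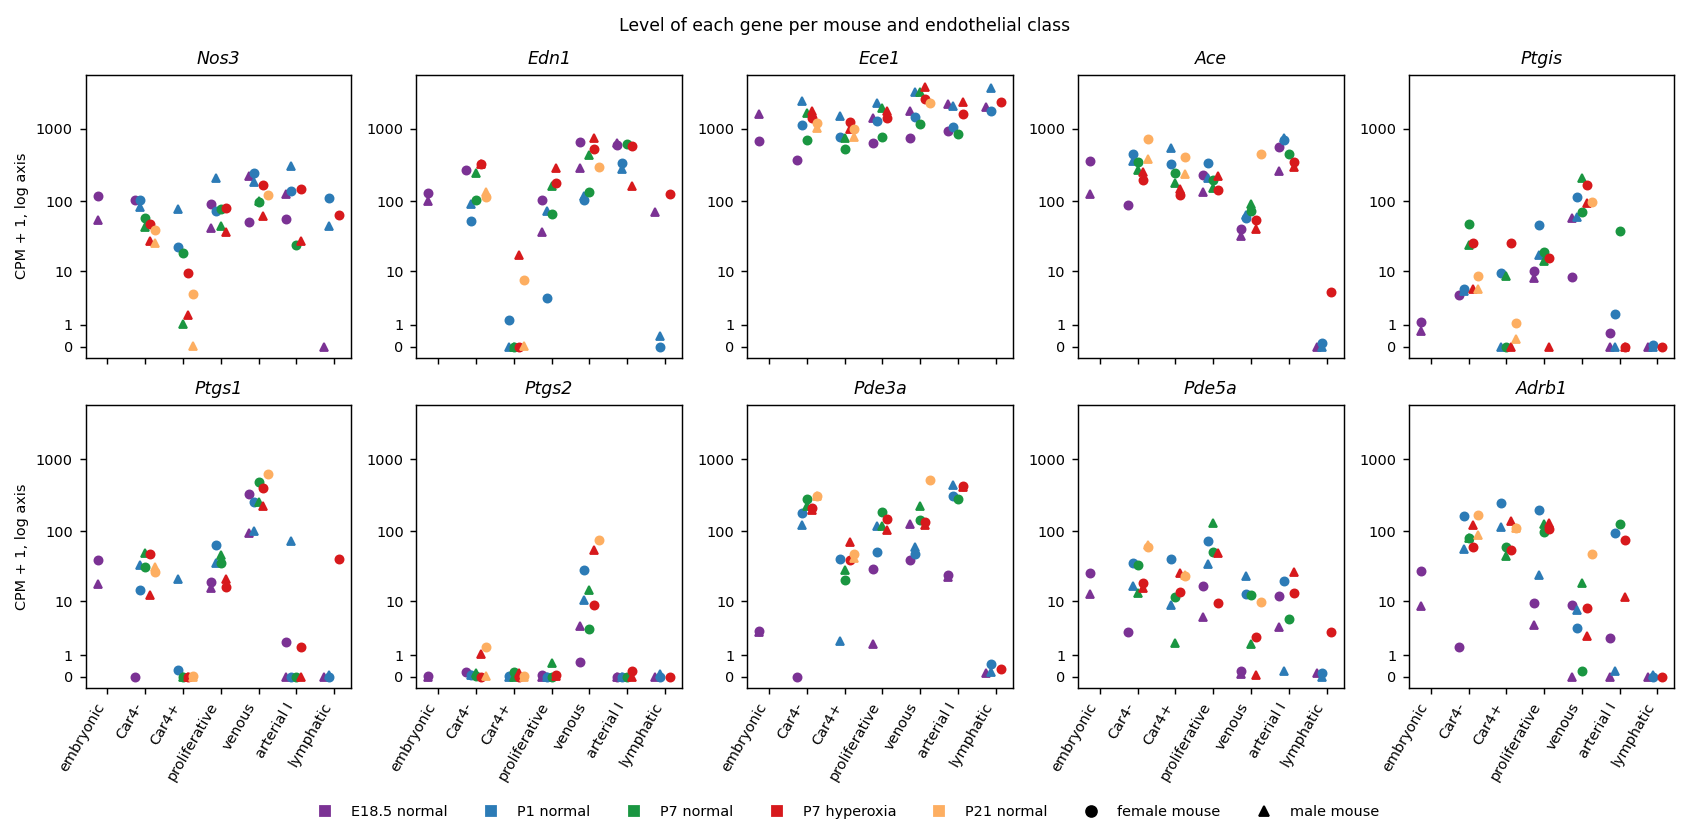
Level of the 10 genes (CPM + 1 on a log axis) in each endothelial class, 1 point per mouse with at least 8 cells of the class, coloured by group, with circles for female and triangles for male mice. Edn1 lies between 0 and 17.2 CPM in Car4+ capillaries, Ptgs2 is above 1.55 CPM only in venous sums, and Ece1 exceeds 300 CPM everywhere.

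The classes carried different sets of these genes. At equal depth a Car4- capillary cell had a read of a median of 4 of the 10 genes, a Car4+ cell of 3, a venous cell of 5 and an arterial I cell of 4, against 2 in nonproliferative embryonic cells. Against Car4- capillaries, Car4+ capillaries had 3 of 10 genes called, all lower (Edn1, Ptgs1, Pde3a), where 3.5% of 14902 genes were called in either direction. Venous cells had 1 higher (Ece1) and 1 lower (Ace), where 0.96% of genes were called. Lymphatic cells had 6 lower (Ace, Edn1, Ptgs1, Pde3a, Pde5a, Adrb1), where 3.45% of genes were called. Arterial I cells had 0 called (0.342% of genes) and proliferative cells 0 (0.55% of genes). Arterial I against venous cells had 1 called, Ace (1.13% of genes).

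Per length of exon sequence, Ece1 was the highest of the 10 in Car4- capillaries, with a median of 244 CPM per kilobase over 8 postnatal mice. Ace (67.1) and Edn1 (58.1) followed, then Adrb1 (25.2), Pde3a (17.3), Nos3 (11.1) and Ptgs1 (8.14), with Ptgis (2.70), Pde5a (2.64) and Ptgs2 (0.0135) at the low end. From Ace down to Pde5a, the ranges over mice of neighbours in this order overlapped, so the order of neighbours is not separated beyond their spread. In venous cells Ece1 (485), Edn1 (138) and Ptgs1 (66.9) led, and Ace stood at 12.3 CPM per kilobase. In Car4+ capillaries Ece1 (166), Ace (45.9) and Adrb1 (32.7) led, and Edn1 stood at 0.00439.

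Nos3 (chromosome 5, 24364810 to 24384474 on GRCm38) was low to moderate in every class of blood vessel. Over the postnatal mice its level ran from 25.5 to 106 CPM in Car4- capillaries (median 45.9) and from 0.0188 to 78.3 CPM in Car4+ capillaries (median 6.84). In each of the 6 normal-air mice it was lower in Car4+ than in Car4- capillaries, with a fitted log2 difference of -2.50 (SE 0.81). This difference missed the threshold with edgeR (adjusted p = 0.0973), while DESeq2 gave 0.0057 and limma 0.0077. The share of cells with a read was 78.6% in arterial II cells (63.2 to 89.7%), a class with a single sum of 8 or more cells, and 62.7% of venous (55.6 to 69.4%), 41.9% of arterial I (31.8 to 52.6%), 24.0% of Car4- (21.8 to 26.3%) and 7.53% of Car4+ cells (4.93 to 10.9%). In 5 of 5 mice venous Nos3 was higher than Car4- Nos3, and that difference was not called (adjusted p = 0.885).

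The 2 endothelin genes went apart. Edn1 (chromosome 13, 42301476 to 42307990) had 53.0 to 331 CPM in Car4- capillaries over 8 postnatal mice, with a median of 124. In Car4+ capillaries it had 0 CPM in 4 of the 8 mice, 0.0188 in the P21 male, 1.37 in the P1 female, 7.23 in the P21 female and 17.2 in the male hyperoxia mouse. The groups did not overlap. In the female P1, female P21 and male hyperoxia sums a single cell held 95.8%, 95.9% and 74.4% of these few reads. Edn1 was lower in Car4+ than in Car4- capillaries in 6 of 6 normal-air mice, by a fitted log2 difference of -7.27 (SE 1.24, adjusted p = 0.00156), and this call held under each of the 16 alternatives. Only 5 of 332 Car4+ cells had an Edn1 read at equal depth (1.51%, 0.491 to 3.48%), against 34.3% of Car4- (31.9 to 36.8%), 62.7% of venous (55.6 to 69.4%) and 65.6% of arterial I cells (55.0 to 75.1%).

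Edn1 was abundant in larger vessels. Over all ages venous sums held 104 to 741 CPM (median 295) and arterial I sums 163 to 648 CPM (median 580). Both classes were above Car4- capillaries in the normal-air mice compared, 5 of 5 for venous and 3 of 3 for arterial I cells, while the male hyperoxia mouse had 163 CPM in arterial I and 331 CPM in Car4- cells. Neither difference was called with edgeR (adjusted p = 1.0 and 0.381), and limma gave 0.597 and 0.0486. Immediate early genes, which respond within minutes to handling of cells, were also high in venous cells. Of 10 such genes Fos and Egr1 were called higher in venous than in Car4- cells, with median levels of 3891 against 1341 CPM for Fos and 813 against 255 CPM for Egr1. In arterial I cells Fos had a median of 727 CPM and 0 of the 10 were called. Their part in the Edn1 levels was not tested.

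Ece1 (chromosome 4, 137862237 to 137965229) was found in every class. Its levels over all sums ran from 372 CPM to 3820 CPM, and at least 86.8% of the cells of any class had a read at equal depth. Venous cells were higher than Car4- capillaries in 5 of 5 mice, by a log2 difference of 0.74 (SE 0.14, adjusted p = 0.00683). The postnatal venous sums ran from 1188 to 3820 CPM and the Car4- sums from 708 to 2432 CPM, so the classes overlap unless compared within a mouse. The call was lost without the P21 female (0.058), the P7 female (0.0625) or the P7 male mouse (0.0739), and with no term for the mouse (0.47). Lymphatic cells were also higher than Car4- cells, in 2 of 2 mice (log2 0.55, SE 0.19). EdgeR did not call it (adjusted p = 0.134, DESeq2 0.00038, limma 0.00546). Car4+ capillaries were lower in 6 of 6 mice (log2 -0.35, SE 0.13), also not called (adjusted p = 0.164, DESeq2 0.113, limma 0.0152).
The level also followed the mouse. In 18 of 21 pairs of the female and male mouse of a group and class, the male was higher, with a median ratio of 2.00 (0.764 to 2.73), and the CD31-gate cells of the 2 mice of a group were in different sequencing runs, so sex and run cannot be told apart here. The female was higher in 17 of 21 such pairs for Ptgis, and in 15 of 21 for Nos3.

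Ace (chromosome 11, 105967945 to 105989964) was highest in capillaries and arteries. Arterial I sums ran from 263 to 753 CPM (median 452) over all ages, Car4- sums from 196 to 725 (median 355) and Car4+ sums from 121 to 553 (median 243) after birth. Venous cells had 32.7 to 92.3 CPM up to P7 and 445 CPM in the P21 female. Ace was lower in venous than in Car4- cells in 5 of 5 mice (log2 -1.86, SE 0.38, adjusted p = 0.0152) and higher in arterial I than in venous cells in 3 of 3 (log2 2.65, SE 0.45, adjusted p = 0.00408). The venous call was lost without the P1 female (0.0848), the P7 female (0.158) or the P7 male (0.0595), and with sums of at least 4 cells (0.0783), and the arterial call without the P7 female (0.0535). With no term for the mouse these values were 0.154 and 0.0577. Lymphatic cells held 2 Ace reads in 26 cells of the P1 female and 0 in 13 cells of the P1 male, or 0.130 and 0 CPM (adjusted p = 1.5e-08 against Car4- cells).

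The p-values between classes take their spread from all 26 sums of 6 mice, though the lymphatic cells come from these 2 P1 mice alone. In them Edn1 stood at 0 and 0.401 CPM (adjusted p = 0.0206), Ptgs1 at 0 and 0.0573 (0.0331), Pde3a at 0.519 and 0.172 (3.81e-05), Pde5a at 0.130 and 0 (0.00407) and Adrb1 at 0 and 0.0573 CPM (0.00605). Ece1 at 1753 and 3679 CPM and Nos3 at 112 and 45.1 CPM were present. Without the P1 female mouse the calls of Edn1 (0.258), Ptgs1 (0.346), Pde5a (0.103) and Adrb1 (0.275) were lost, and those of Ace and Pde3a stayed. Edn1 was also lost without the P1 male (0.202), and Ptgs1 without the P21 female (0.0522), the P7 female (0.0635) or the P7 male (0.0744). Other lymphatic sums were not as low: Edn1 had 69.8 CPM in the male E18.5 mouse and 124 CPM in the female hyperoxia mouse, from 3 cells each, and Ptgs1 had 41.5 CPM in the latter, from 2 cells. With the hyperoxia mice added the adjusted p was 0.306 for Edn1, 0.685 for Ptgs1 and 0.0955 for Pde5a, and with sums of at least 4 cells it was 0.107 for Edn1 and 0.464 for Pde5a. Ptgs1 was also lost with no term for the mouse (0.133) and with limma at a pseudocount of 10 (0.143).

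The 3 prostanoid enzymes had their highest levels in venous cells, though edgeR called none of them there. Ptgs1 (chromosome 2, 36230426 to 36252272) had 94.7 to 617 CPM in the 9 venous sums (median 260), 12.4 to 50.6 CPM in postnatal Car4- capillaries and 0 in 5 of 8 Car4+ sums, with 21.2 CPM as the highest. A read was seen in 76.1% of venous (69.6 to 81.8%), 8.98% of Car4- (7.56 to 10.6%), 2.15% of arterial I (0.262 to 7.55%) and 0.602% of Car4+ cells (0.0730 to 2.16%). Ptgs1 was lower in Car4+ than in Car4- cells in 6 of 6 mice (adjusted p = 0.0185). That call was lost in 7 of 16 alternatives, among them leaving out the P1 female (0.122), the P7 female (0.131), the P7 male (0.1), the P21 female (0.0647) or the P21 male (0.0611). In venous cells it was higher than in Car4- cells in 5 of 5 mice without passing the threshold (adjusted p = 0.3). It passed with thinned cells (0.0184), with limma (0.0451 and 0.00148 at the pseudocounts of 1 and 10) and without the P1 male (0.0316).

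Ptgis (chromosome 2, 167191805 to 167240604) had 8.19 to 211 CPM in venous sums (median 95.2) and at most 47.4 CPM in any sum of 8 or more cells of another class. That limit holds for the joined Car4- class. In the P7 female the 44 Late cells alone had 169 CPM, within the venous range, and the 162 Early cells 29.9 CPM. At equal depth 38.3% of venous cells had a read (31.6 to 45.4%), 5.42% of Car4- cells (4.31 to 6.70%) and 0 of 82 lymphatic cells, which allows a share of up to 4.40%. It was higher in venous than in Car4- cells in 5 of 5 mice, and the difference was not called (log2 2.92, SE 1.32, adjusted p = 0.425).

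Ptgs2 (chromosome 1, 150100031 to 150108227) was close to 0 outside veins, at 0 to 1.55 CPM in the sums of the other classes. Venous sums of at least 8 cells had 0.585 and 4.02 CPM at E18.5 (female, male), 29.1 and 10.5 at P1, 3.51 and 14.9 at P7, 8.90 and 55.7 after hyperoxia, and 75.5 in the P21 female. In the P1 female, 1 of 17 venous cells held 99.7% of the reads. Of 201 venous cells 16.4% had a read (11.6 to 22.3%), against 8 of 1459 Car4- cells (0.548%, 0.237 to 1.08%) and 0 of 93 arterial I cells, which allows up to 3.89%. Venous cells were higher than Car4- cells in 5 of 5 mice (log2 7.08, SE 1.79), which missed the threshold with edgeR (adjusted p = 0.0688), while thinned cells gave 0.0178, DESeq2 7.1e-07 and limma 4.92e-05. The summed immediate early genes in the same venous sums ran from 6052 to 20600 CPM, with the highest value in the P21 female, and their part in Ptgs2 was not tested. The window printed above shows the CRE core and E box letters of this gene just after its start site.

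Pde3a (chromosome 6, 141249269 to 141507448) separated the 2 capillary types as Edn1 did. It had 121 to 313 CPM in postnatal Car4- capillaries (median 220) and 2.16 to 71.8 CPM in Car4+ capillaries (median 40.8), with no overlap. The log2 difference was -2.84 (SE 0.51, adjusted p = 0.00224), lower in 6 of 6 normal-air mice and called under each of the 16 alternatives. Arterial I cells after birth had 278 CPM or more, and 67.7% of arterial I cells of all ages had a read (57.3 to 77.1%), against 63.1% of Car4- (60.6 to 65.6%) and 24.1% of Car4+ cells (19.6 to 29.1%). Pde5a (chromosome 3, 122728947 to 122859374), the enzyme blocked by sildenafil, was low throughout, at 13.2 to 63.8 CPM in postnatal Car4- and 1.94 to 41.8 CPM in Car4+ capillaries (adjusted p = 0.644). Reads of it were seen in 16.3% of Car4- cells (14.5 to 18.3%), 17.2% of Car4+ cells (13.3 to 21.7%) and 9.45% of venous cells (5.79 to 14.4%).

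Adrb1 (chromosome 19, 56722199 to 56733113) was found in both capillary types, in proliferative cells and, unevenly, in arterial I cells. After birth Car4- sums had 56.1 to 167 CPM (median 85.4) and Car4+ sums 45.9 to 246 CPM (median 111), and Car4+ was the higher in 3 of 6 normal-air mice (adjusted p = 0.895). Proliferative sums had 24.04 to 199 CPM (median 116) and arterial I sums 0.215 to 128 CPM (median 76.7), neither called against Car4- cells (adjusted p = 0.987 and 0.951). Venous cells had 0 to 18.8 CPM except in the P21 female (47.6 CPM), lower than Car4- cells in 5 of 5 mice (log2 -3.06, SE 1.01), and edgeR did not call it (adjusted p = 0.191, DESeq2 0.015, limma 0.0115). Over cells of all ages a read was found in 53.6% of Car4+ (48.1 to 59.1%), 47.4% of Car4- (44.8 to 50.03%), 33.1% of proliferative (28.4 to 38.0%), 32.3% of arterial I (22.9 to 42.7%), 9.45% of venous (5.79 to 14.4%) and 1 of 82 lymphatic cells (1.22%, 0.0309 to 6.61%). At E18.5 Adrb1 had means of 6.8 CPM in proliferative and 1.22 CPM in arterial I cells, which count in these shares. Age mix and class cannot be told apart in them.

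**Figure D2:**
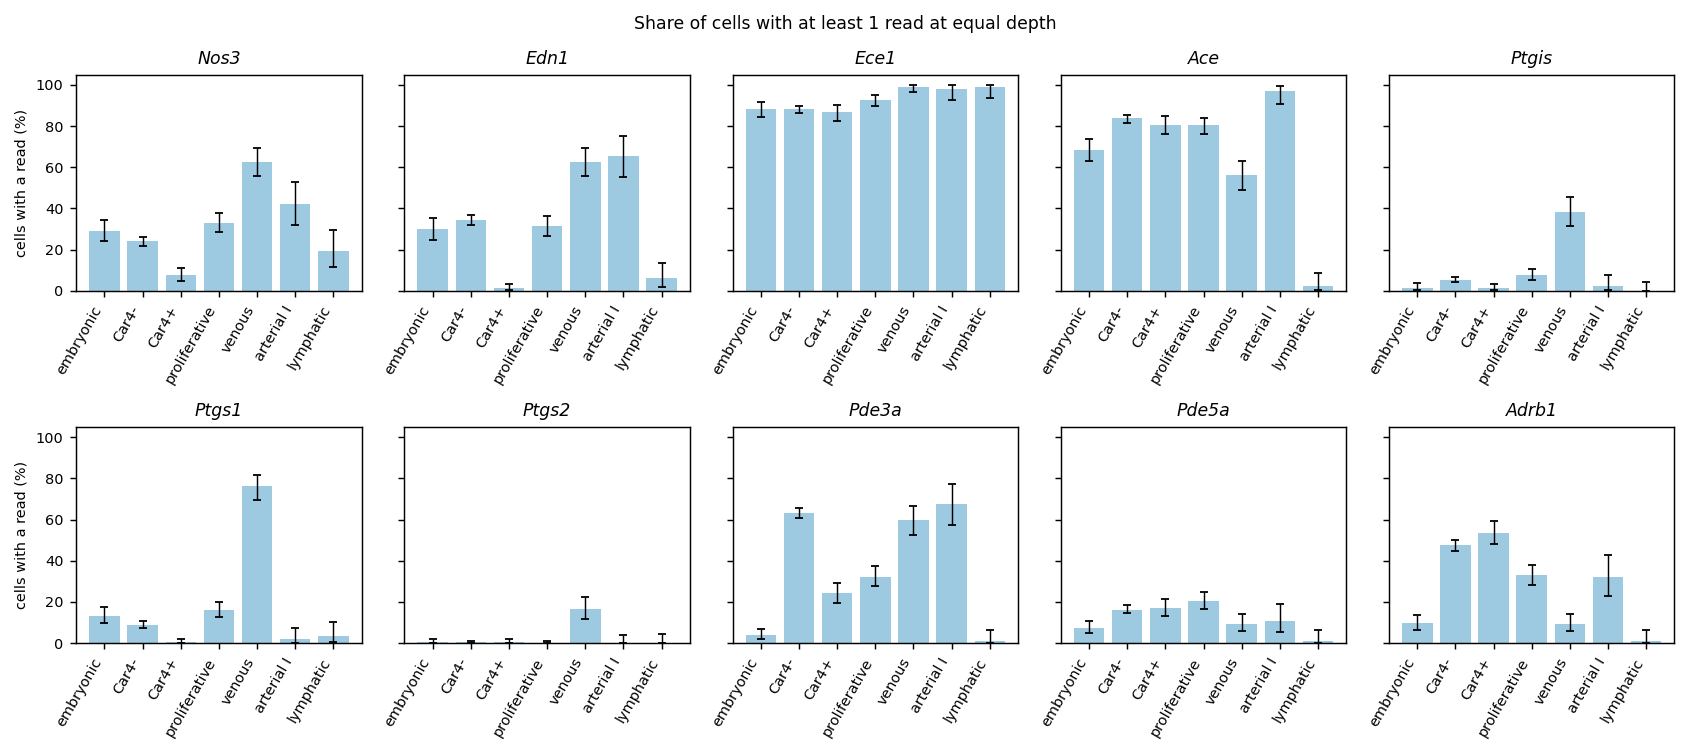
Share of cells with at least 1 read of each gene after each cell of at least 50000 reads was thinned to 50000, by class over all mice, with exact 95% binomial intervals over cells as error bars. Ptgs1 and Ptgis stand out in venous cells (76.1% and 38.3%), and Edn1 falls to 1.51% in Car4+ cells.

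The step across birth was read from E18.5 to P1. Nonproliferative embryonic cells at E18.5 were set against Car4- capillaries at P1, and proliferative, venous and arterial I cells against the same class. Label and age change together in the first comparison and cannot be told apart there. In the first comparison 1 of 10 genes was called, Pde3a, where 0.494% of 14967 genes were called, and the median log2 change of the 10 was 0.79 against 0.02 over all genes. In proliferative cells edgeR called 0 of 9 (0.0% of genes), 3 had an unadjusted p under 0.05 (7.42% of genes), and DESeq2 called 1 (510 genes in all). In venous cells edgeR called 0 of 10 (0.0162% of genes), 2 had an unadjusted p under 0.05 (8.71% of genes), and DESeq2 called 2 (539 genes in all). In arterial I cells edgeR called 0 of 8 (0.0293% of genes), 1 had an unadjusted p under 0.05 (3.36% of genes), and DESeq2 called 1 (246 genes in all). Limma called 1 gene in the first comparison and 0 in each of the other 3. Groups said not to overlap below had both mice of 1 group beyond both of the other. How many of all genes did so was not counted.

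Pde3a was higher in Car4- capillaries at P1 than in nonproliferative embryonic cells at E18.5. The female and male E18.5 mice had 3.36 and 3.12 CPM in embryonic cells, and the P1 mice 181 and 121 CPM in Car4- capillaries. The means were 3.24 ± 0.166 and 151 ± 42.5 CPM (SD, n = 2), a log2 change of 5.61 (SE 0.43, adjusted p = 1.2e-05). It was called under each of the 19 alternatives, with adjusted p values up to 0.00702. The 2 females shared a sequencing run and had 3.36 and 185 CPM among CD31-gate cells. The share of cells with a read went from 5.30% and 3.57% to 70.6% and 44.3%.
Cells with the later label before birth, and with the embryonic label after it, were few. In the female E18.5 mouse 13 cells carried a Car4- label, with 0 Pde3a reads, and 2 and 3 cells of the P1 mice carried the embryonic label, with 0.691 and 0 CPM. In arterial I cells Pde3a had 24.6 and 22.9 CPM at E18.5 and 306 and 437 CPM at P1, with no overlap (adjusted p = 0.481, 0.0179 without the P1 female, DESeq2 0.000111). In proliferative cells it had 29.6 and 1.86 CPM against 50.95 and 120 CPM (adjusted p = 0.621, 0.0313 without the P1 female). Venous cells held 39.7 and 127 CPM before birth and 48.5 and 60.8 CPM after it, groups that overlap. Summed proliferation markers were lower in the P1 Car4- sums (31.8 and 48.9 CPM) than in the embryonic sums (247 and 296 CPM), though 0 of 4 were called. Summed arterial markers were higher (529 and 432 against 144 and 138 CPM), and 1 of 4 was called, Cxcl12, at 32.6 and 15.8 CPM in embryonic and 274 and 185 CPM in P1 Car4- sums. Gja5 stayed at 33.4 CPM or less in the Car4- sums, against 137 CPM or more in arterial I sums. The part of these markers in the result was not tested.

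Adrb1 was also higher after birth in the capillary comparison. It had 27.8 and 8.59 CPM in embryonic cells and 166 and 56.1 CPM in P1 Car4- cells, with no overlap. The log2 change of 2.65 (SE 0.60) missed the threshold with edgeR (adjusted p = 0.0883) and passed with thinned cells (0.0393), with no filter on low counts (0.0362), with DESeq2 (0.000736) and without the P1 male mouse (0.046). In proliferative cells it had 9.38 and 4.22 CPM before and 199 and 24.0 CPM after birth (adjusted p = 0.311, DESeq2 5.14e-05, 0.00117 without the P1 male). In arterial I cells the P1 female had 93.8 CPM and the P1 male 0.215, against 2.44 and 0 CPM at E18.5, so the groups overlap (adjusted p = 1.0). The female pair of 1 run gave 27.8 and 170 CPM in the capillary comparison.

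The other members gave smaller or less even steps. Ptgis had 1.17 and 0.657 CPM in embryonic cells and 5.15 and 4.82 CPM in P1 Car4- cells (adjusted p = 0.414, DESeq2 0.0337). Venous Edn1 had 657 and 285 CPM at E18.5 and 104 and 118 CPM at P1, with no overlap (log2 -2.25, SE 0.68, adjusted p = 0.439, DESeq2 0.0256, 0.0398 without the E18.5 male). Edn1 in arterial I cells had 592 and 648 CPM before and 334 and 276 CPM after birth (adjusted p = 1.0). In the capillary comparison it had 129 and 101 CPM before and 53.0 and 92.6 CPM after (adjusted p = 0.808). Venous Pde5a had 2 and 1 reads, or 0.195 and 0.112 CPM, before birth and 12.98 and 23.4 CPM after (adjusted p = 0.555, DESeq2 0.0458). Capillary Nos3 had 118 and 54.4 CPM before and 106 and 83.1 CPM after (adjusted p = 0.955), and Ace 366 and 128 CPM before and 448 and 359 CPM after (adjusted p = 0.616). In both cases the groups overlap.

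**Figure D3:**
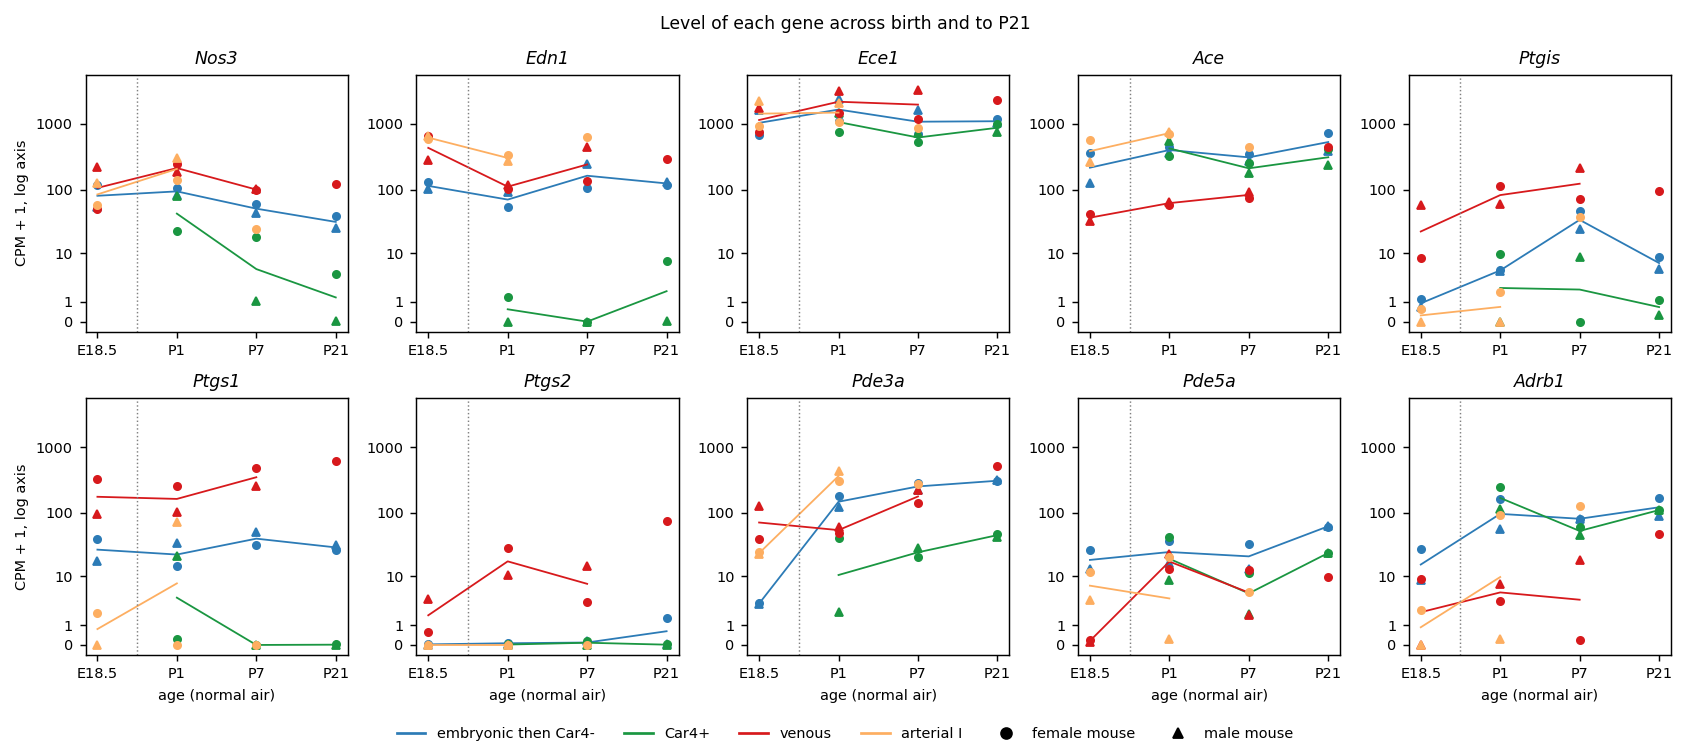
Level of the 10 genes (CPM + 1 on a log axis) by age in normal air, 1 point per mouse (circles female, triangles male), with lines through the mean of log values where both mice had at least 8 cells; the dotted line marks birth, and the blue line joins embryonic cells at E18.5 to Car4- capillaries after it. Pde3a steps from 3.24 to 151 CPM on the blue line.

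From P1 to P7 edgeR called 0 members in Car4- (10 tested, 0.0% of genes called), Car4+ (8 tested, 0.0%), proliferative (9 tested, 0.0%) and venous cells (10 tested, 0.0%). At an unadjusted p under 0.05 there were 3, 1, 0 and 1 members, where 11.3%, 6.28%, 9.82% and 3.21% of all genes were. DESeq2 called 1, 1, 0 and 0 members and 398, 256, 613 and 76 genes in all, and limma called 0 members in each. The DESeq2 call in Car4+ cells was Edn1 (0.000154), which rests on 48 reads in the P1 female. No pair of CD31-gate mice shares a run in this contrast, so age and run cannot be told apart. Capillary Ptgis had 5.15 and 4.82 CPM at P1 and 47.4 and 24.4 CPM at P7, with no overlap (log2 2.75, SE 0.88, adjusted p = 0.385, DESeq2 0.0218). At P7 only 16 of 206 cells in the female carried its reads, and 1 cell held 45.0% of them. Nos3 in Car4- capillaries had 106 and 83.1 CPM at P1 and 59.1 and 43.7 CPM at P7 (adjusted p = 0.439), and Adrb1 in Car4+ capillaries 246 and 116 CPM at P1 and 60.6 and 45.9 CPM at P7 (adjusted p = 0.73). The 18 Car4+ cells of the P7 male from the CD31 gate and 1 run had 116 CPM of Adrb1, a level like that of the P1 male. Proliferative Edn1, at 3.71 and 72.8 CPM at P1 and 67.2 and 163 CPM at P7, was called when the P1 male was left out (0.0201).

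From P7 to P21 edgeR called 0 of 10 members in Car4- capillaries, where 0.266% of genes were called, and 0 of 8 in Car4+ capillaries, where 0.00814% were. The Car4- cells at P7 were mostly of the Early label (162 and 114 cells, with 44 Late cells in the female). At P21 the Late label held 268 and 265 cells. Label and age change together in the Car4- contrast and cannot be told apart there. At an unadjusted p under 0.05 there were 3 and 0 members, where 10.5% and 5.24% of all genes were. DESeq2 called 0 and 1 members and 698 and 258 genes in all, and limma called 0 and 0 members. The DESeq2 call was again Edn1 in Car4+ cells (6.11e-06), which rests on 363 reads of 2 cells in the P21 female and 1 read in the male. Heat shock genes, a sign of stress or handling, differed in the same mice. Hspa1a and Hspa1b, of 4 tested, were called higher at P21 in Car4- capillaries, and the summed list went from 230 and 194 CPM at P7 to 889 and 1564 CPM at P21. In Car4+ capillaries the sums were 246 and 54.1 CPM at P7 and 1638 and 1338 CPM at P21, with 0 of 4 called. Their part in the P21 levels of the members was not tested. Pde5a in Car4- capillaries had 33.5 and 13.2 CPM at P7 and 60.8 and 63.8 CPM at P21, with no overlap (log2 1.53, SE 0.59, adjusted p = 0.411). The males, which shared a run, had 16.8 and 73.9 CPM among CD31-gate cells. Among the P21 mice the level also differed by sort gate, at 63.7 and 73.9 CPM in CD31-gate cells (221 and 184) and 21.02 and 49.5 CPM in cells of the gate named mesench (50 and 83, female and male). Adrb1 in these Car4- cells went the same way, at 182 and 118.5 against 110 and 43.3 CPM. Pde3a went the other way, at 295 and 244 against 383 and 414 CPM. Ptgis differed in the male alone, at 8.68 and 8.87 against 8.68 and 0.0595 CPM. Ace had 351 and 274 CPM at P7 and 725 and 388 CPM at P21 (log2 0.92, SE 0.38, adjusted p = 0.428), and Ptgis 47.4 and 24.4 CPM against 8.58 and 5.25 CPM (log2 -2.28, SE 0.86, adjusted p = 0.4). Nos3 in Car4- capillaries had 39.1 and 25.5 CPM at P21, below both P7 mice (adjusted p = 0.69).

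Hyperoxia at P7 was compared with normal air at P7 in 4 classes. edgeR called 0 of 10 members in Car4- (0.0136% of genes called), 0 of 8 in Car4+ (0.0% of genes), 0 of 9 in proliferative (0.0%) and 0 of 10 in venous cells (0.0%). No member had an unadjusted p under 0.05 in any of them, where 5.52%, 6.16%, 2.59% and 2.69% of all genes did. DESeq2 called 1, Edn1 in Car4+ capillaries (adjusted p = 8.61e-07), which rests on 511 reads of 3 cells in the male hyperoxia mouse, while the female had 0 reads as both air mice did. Limma called 0.

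In the 3 tested classes where the air mice had reads, Edn1 was higher in hyperoxia, below the threshold. In Car4- capillaries the air mice had 106 and 250 CPM and the hyperoxia mice 326 and 331 CPM (log2 0.87, SE 0.47, adjusted p = 0.894). In venous cells the values were 133 and 438 CPM in air and 523 and 741 CPM in hyperoxia (log2 1.20, SE 0.66, adjusted p = 1.0). In proliferative cells they were 67.2 and 163 CPM in air and 181 and 285 CPM in hyperoxia (log2 1.03, SE 1.04, adjusted p = 1.0). The groups did not overlap in these 3 classes, which come from the same mice, and none of the differences passed the threshold. How many of all genes had groups without overlap under hyperoxia was not counted. Arterial I cells, not tested for lack of a second air mouse, went the other way, with 623 CPM in the air female and 580 and 163 CPM in hyperoxia. The males, in 1 run, had 147 and 331 CPM in Car4-, 438 and 741 CPM in venous and 184 and 285 CPM in proliferative CD31-gate cells.

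None of the other members passed the test either. Nos3 in Car4- capillaries had 59.1 and 43.7 CPM in air and 48.1 and 27.9 CPM in hyperoxia, groups that overlap (adjusted p = 1.0). Ace had 351 and 274 CPM in air and 196 and 255 CPM in hyperoxia in Car4- cells, with no overlap (log2 -0.50, SE 0.37, adjusted p = 1.0), and 250 and 178 against 121 and 147 CPM in Car4+ cells (log2 -0.91, SE 0.53, adjusted p = 0.738). Venous Ptgs2 had 3.51 and 14.9 CPM in air and 8.90 and 55.7 CPM in hyperoxia, groups that overlap (adjusted p = 1.0), and 3 of 21, 5 of 23, 8 of 23 and 15 of 30 cells carried its reads in that order of mice, counted without thinning. The 10 cells labelled proliferative venous, which occur only in the hyperoxia mice, had 40.4 and 39.5 CPM of Ptgs2, 350 and 60.03 CPM of Ptgis, 113 and 380 CPM of Ptgs1 and 7.72 and 13.4 CPM of Ace, from 5 cells per mouse.
The change with hyperoxia was compared between classes by an interaction term, for 10 members each. Car4+, venous and proliferative cells against Car4- capillaries had 0 members called (0.0% of genes in each). At an unadjusted p under 0.05 there were 0 members (3.69%, 4.02% and 1.42% of genes), and DESeq2 and limma called 0 members too.

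**Figure D4:**
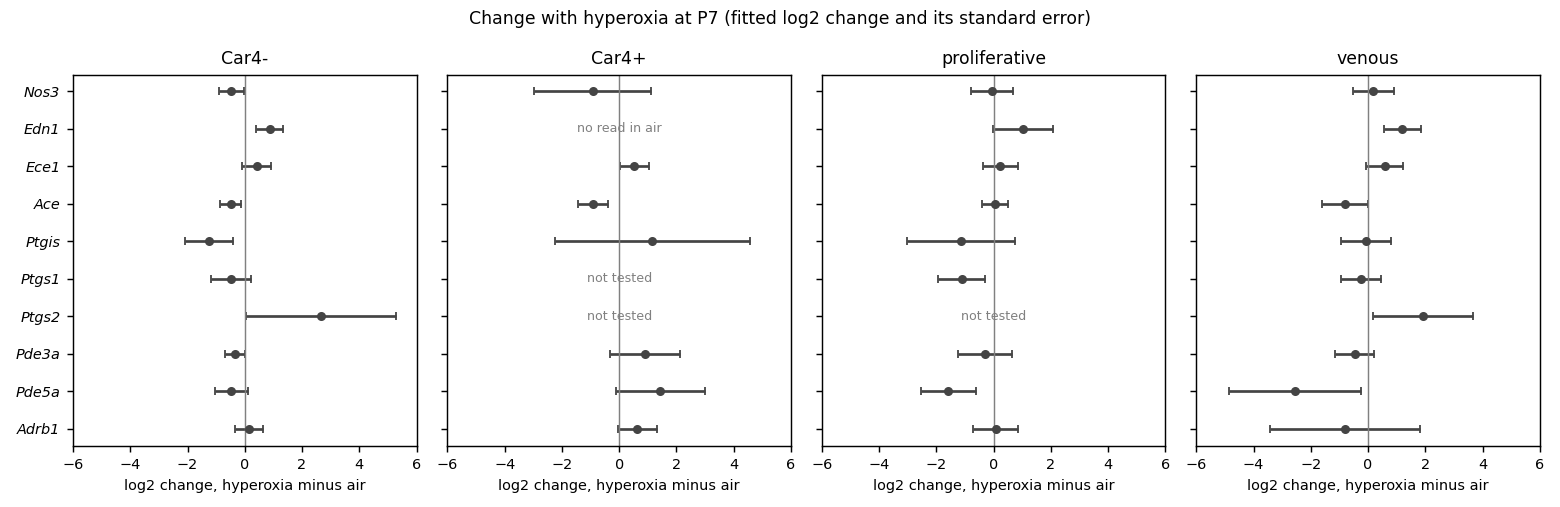
Fitted log2 change from normal air to hyperoxia at P7 for each gene in 4 classes, with its standard error as a bar, from 2 mice per group. Edn1 lies above 0 in the 3 plotted classes where the air mice had reads, at 0.87, 1.03 and 1.20, and no change passed the threshold.

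Other genes of these pathways were counted from a list of 76, of which 72 were in the table and 33 to 57 could be tested in a comparison. In Car4+ against Car4- capillaries 1 of 57 was higher and 3 were lower, where 3.5% of all genes were called. The higher one was Ednrb, the endothelin B receptor, with 1660 to 3340 CPM in Car4+ and 51.9 to 442 CPM in Car4- sums (log2 4.60, SE 0.54, adjusted p = 1.73e-05). So the capillary type with less Edn1 held more Ednrb, a gene that is also in the list of Car4+ markers. The lower ones were the natriuretic peptide receptors Npr3 (47.2 to 103 CPM in Car4-, 0 to 9.03 CPM in Car4+, adjusted p = 0.00665) and Npr1 (95.7 to 190 and 8.43 to 60.4 CPM, 0.00772), and Cav1, the caveolar protein that binds Nos3 (log2 -1.26, SE 0.19, 0.000492, lost in 1 of 16 alternatives at 0.0938).

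In venous against Car4- cells 1 of 57 was higher and 1 lower, where 0.96% of all genes were called. Pla2g4a, the phospholipase that releases arachidonic acid for the cyclooxygenases, had 23.7 to 104 CPM in venous sums and at most 1.13 CPM in Car4- sums (adjusted p = 0.0237), and the call was lost without the P1 female (0.0696), the P7 female (0.0853) or the P21 female (0.101). It was at 0 in each arterial I sum after birth. Nostrin, which carries Nos3 inward from the membrane, was lower (log2 -1.63, SE 0.32, adjusted p = 0.0107), with 51.6 to 329 CPM in venous and 420 to 635 CPM in Car4- sums. That call was lost without the P7 female (0.0818), the P7 male (0.0794) or the P21 female (0.0768). In lymphatic against Car4- cells, where 3.45% of all genes were called, 1 of 57 was higher (Pde1b, at 5.12 to 10.4 CPM) and 7 were lower: Cav1, Ddah2, Hpgd, Nostrin, Npr3, Pde9a and Slco2a1. Without the P1 female the calls of Pde1b (0.0802), Hpgd (0.142) and Npr3 (0.444) were lost, and without the P1 male those of Pde1b (0.467) and Npr3 (0.181). Pde1b was also lost without the P7 female (0.0641) or male (0.0625), with thinned cells (0.18) and with limma at a pseudocount of 10 (0.129). Npr3 was also lost without the P7 male (0.065) and with sums of at least 4 cells (0.124). In arterial I and proliferative cells against Car4- capillaries, and in arterial I against venous cells, 0 of 57 were called.

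Across birth 2 of 55 tested list genes were called higher at P1 in the capillary comparison and 0 lower, where 0.494% of all genes were called. Hpgd, which inactivates prostaglandins, went from 25.4 and 17.5 CPM to 808 and 285 CPM (log2 4.70, SE 0.56, adjusted p = 0.000915). Npr3, which clears natriuretic peptides, went from 10.6 and 8.30 CPM to 74.2 and 93.8 CPM (log2 3.27, SE 0.47, adjusted p = 0.00463). The call of Hpgd held under 19 of 19 alternatives and that of Npr3 under 16 of 19, being lost without the E18.5 male (0.0709) and with limma at either pseudocount (0.0598 and 0.0957). In arterial I cells Ednrb had 3.94 and 0 CPM at E18.5 and 338 CPM or more in both mice at P1 (adjusted p = 0.481), a change called in 9 of 15 alternatives. In the other birth comparisons, from P1 to P7, from P7 to P21 and under hyperoxia, 0 list genes were called with edgeR. There the largest changes among list genes of at least 20 CPM included Gucy1a1 in venous cells, at 55.2 and 4.83 CPM at P1 and 0.0386 and 0 CPM at P7 (adjusted p = 1.0), Pla2g4a in Car4+ cells, at 0 in both P7 mice and 3.83 and 96.6 CPM at P21 (0.858), and Ass1 in Car4+ cells, at 0.384 and 0.776 CPM in air and 23.7 and 20.5 CPM in hyperoxia (0.731).

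Over 48 sums of a mouse and class, the genes most like each member among 7250 genes of at least 20 CPM were taken by Pearson's r of log2(CPM + 1), as a description. Ace was closest to Nrp1 (0.885), Ly6c1 (0.877) and Epas1 (0.871), Edn1 to Ptprb (0.857), Hmcn1 (0.807) and Mecom (0.803), and Adrb1 to Dpp4 (0.843), Sema3c (0.840) and Bmpr2 (0.805). Ptgs1 and Ptgis shared Lhx6 (0.855 and 0.714) and Mmp16 (0.810 and 0.716) among their 3 closest genes. Pde3a was closest to Trim30a (0.838), Smad7 (0.835) and Plscr1 (0.827), Ece1 to Gnb1 (0.831), and Nos3 to Foxp1 (0.721). Pde5a had another member, Adrb1, among its closest 3 (0.710). Sums of the same mouse share depth and run, and Ptgs2 was below the level needed.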

How the data were processed

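The authors deposited whole read counts per gene and cell, without molecular identifiers. The submitters' processing notes name STAR 2.5.2b, HTSeq 0.10 and the build GRCh38, a human build, although the cells and gene symbols are of mouse. The annotation used for counting is not given in the sources used here, so positions are those of GENCODE M21 (GRCm38). Groups, mouse names and subtypes come from the labels. Counts were summed per mouse and class and tested in R 4.3.3 with edgeR 4.0.16, by its quasi-likelihood F test after TMM scaling and filterByExpr. A fit held every group of a class with both mice, which left 3 to 5 residual degrees of freedom (15 between subtypes). P-values were adjusted over all genes tested. Alternatives were DESeq2 1.42.0, RLE, no filter, limma 3.58.1 on log2(mean CPM + 1) or + 10, CD31-gate cells, thinned cells, other cell minimums, sex as a block, and leaving out each mouse. The scripts were tested on simulated data. Members and lists were chosen with earlier results of these data known. All members are named; a list gene is named when called, and otherwise up to 3 per family of comparisons with the largest change at a mean of at least 20 CPM.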

Additional observations from a re-analysis of the deposited data

Results flagged for a closer look

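Ace and Pde3a moved in opposite directions in different classes under the same contrast, with both mice of one group beyond both of the other. How many of all genes did so was not counted. From P1 to P7 Ace was higher in venous cells (log2 0.343) and lower in Car4- (-0.461), Car4+ (-0.964) and proliferative cells (-0.764). The difference between these classes was not tested, and none of the 4 changes was called. Under hyperoxia Pde3a was higher in Car4+ capillaries (log2 0.897) and lower in Car4- capillaries (-0.337) and venous cells (-0.463). The interaction of Pde3a was 1.21 (SE 1.01, adjusted p = 1.0) between Car4+ and Car4- capillaries and -0.11 (SE 0.46, adjusted p = 1.0) between venous cells and Car4- capillaries. Among CD31-gate cells of the males, which shared a run, Car4+ capillaries had 73.3 CPM of Pde3a in air and 71.8 CPM in hyperoxia, so the difference in Car4+ cells is absent in that pair. With 2 mice per group no single mouse could be tested for standing apart.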

How the results depend on the processing

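The number of members called over the comparisons of a family moved with the tool and with single mice. Across birth it was 1, and 7 with DESeq2, 4 with no filter on low counts, 2 with thinned cells and 1 to 4 when a mouse was left out. From P1 to P7 it was 0, 2 with DESeq2 and 0 to 1 without a mouse. From P7 to P21 and under hyperoxia it was 0, 1 with DESeq2 in each, and 0 to 0 without a mouse. Between subtypes it was 12, 24 with DESeq2, 23 with either pseudocount of limma, and 6 to 14 without a mouse, with 6 when the P1 female was left out. Without the mouse as a block (no replicate block) 7 calls between subtypes were made. With sex as a replicate block the counts were 1 across birth and 0 for the other contrasts in time and for hyperoxia, so no count changed. The labels name the sex of a mouse and no other link between mice of different groups. For hyperoxia effects between classes the count was 0 under each alternative run. Over 59 results of single genes, 823 alternatives left the side of the threshold unchanged, 54 lost a call, 85 gained one and 4 turned the direction. These 4 were Edn1. Without a mouse, its proliferative log2 change across birth ran from -4.33 (without the P1 male) to 0.302 (without the P1 female), with 0.262 without the E18.5 female. Its Car4+ change from P1 to P7 ran from -8.35 to 0.0, the latter without the P1 female, and under hyperoxia it was 0.0 without the male hyperoxia mouse; in both cases no reads were left in either group. With 2 mice per group and sums of as few as 8 cells, levels under about 20 CPM often rest on reads of a few cells. The cause was not tested for the other changes.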
